A study of Caenorhabditis elegans with 9 samples.

Results

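The long noncoding RNA tts-1 (WBGene00006650) was followed through all 9 libraries of RNA recovered by anti-GFP immunoprecipitation from dauer larvae of Caenorhabditis elegans. It was chosen by its name in the deposited tables and is 1 of their 46904 genes, 46881 of which are not ribosomal RNA (rRNA) genes. The deposited tables class it as ncRNA with 2 transcripts and place it on the X chromosome of the WBcel235 build, from position 1504131 to position 1504841, a span of 711 bases. The NCBI RefSeq gene table of the same build gives the same start and end. The gene codes for no protein, so its span is annotated as noncoding transcript rather than as coding exon or UTR.

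As background, tts-1 is known as one of the most abundant noncoding RNAs of dauers and of long-lived daf-2 mutants. DAF-2 is the insulin-like receptor, and its loss frees DAF-16, the FOXO transcription factor, on which tts-1 expression in daf-2 mutants depends. The RNA is found with ribosomes, and in daf-2 mutants its loss has been linked to higher ribosome levels. AMP-activated protein kinase (AMPK), whose catalytic subunits are encoded by aak-1 and aak-2, is the cell's energy sensor and slows fuel use in dauers.

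All animals carried daf-2 and were hermaphrodites grown at 25 °C, collected at 96 hours on day 2 of dauer and fixed with formaldehyde. In 3 libraries, called HZL-1 aak(0), the animals also lacked aak-1 and aak-2 (together aak(0)) and hzl-1, and carried HZL-1 fused to GFP on an extrachromosomal array under the promoter of nhx-2, a gene of the intestine. Another 3 libraries, HZL-1 daf-2, came from animals with the same array and the hzl-1 mutation but without aak(0). In 1 library, GFP, animals with aak(0) carried GFP alone under the nhx-2 promoter, and no hzl-1 mutation is listed for them. A last pair, 1 library with aak(0) and 1 without it, came from hzl-1 mutants with the array Ex(hzl-1p::hzl-1::GFP), in which the tagged protein was driven by its endogenous promoter. Extrachromosomal arrays are passed on to only part of the cells and offspring, and lysates were of whole animals. Input RNA was not analysed here. A level of tts-1 therefore holds both its abundance and its recovery, and fewer expressing cells cannot be told apart from less RNA per cell.

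The 7 intestinal-promoter libraries were unequal in ways that touch every level below. Genes above 0 FPKM (fragments scaled to transcript length and library size) numbered 3439, 13967 and 18666 in HZL-1 aak(0) replicates 1 to 3, 5135, 11510 and 6076 in HZL-1 daf-2 replicates 1 to 3, and 16317 in GFP. In the 6 HZL-1 libraries gene reads totalled between 7151604 and 17397251, of which rRNA took between 76.3% and 89.8% and left between 1393416 and 3539244 reads of other genes. Markers of the intestine were low, and between 3 and 7 of the 7 were above 0. Of these markers vha-6 alone was above 0 in every library, at 3.34 to 15.85 FPKM. elt-2, the main transcription factor of the intestine, was at 0 FPKM in HZL-1 aak(0) replicate 1 and in HZL-1 daf-2 replicates 1 and 3. The other intestine markers were each at 0 FPKM in HZL-1 daf-2 replicate 1 or 3. For nhx-2, at 0 FPKM in HZL-1 daf-2 replicate 1, this was not an absence, as it had 177 reads there. All 3 body wall muscle markers were above 0 in every library. The targeted gene aak-2 had 0, 2.11 and 3.36 FPKM in HZL-1 aak(0), against 6.13, 5.31 and 7.90 FPKM in HZL-1 daf-2. In reads the groups lay closer, with 153, 113 and 237 reads of aak-2 in HZL-1 aak(0) and 282, 309 and 449 in HZL-1 daf-2. Scaled to all gene reads these overlapped, at 7.12 to 21.4 CPM in HZL-1 aak(0), highest in replicate 1, and 17.8 to 38.3 CPM in HZL-1 daf-2, while scaled to non-rRNA reads they did not. aak-1 had 0, 2.19 and 2.66 FPKM in HZL-1 aak(0), against 0, 2.85 and 6.41 FPKM in HZL-1 daf-2, and the bait gene hzl-1 had 6.25, 18.7 and 17.5 FPKM in HZL-1 aak(0), against 2.01, 11.4 and 10.4 FPKM in HZL-1 daf-2. The library labelled GFP aak(0) had 8.32 FPKM of aak-2, above every HZL-1 library. The alleles were not examined here, so levels of aak-2 RNA do not settle a genotype. In the endogenous pair the library labelled aak(0) held 92248 reads of aak-2 and the library labelled daf-2 held 3937, and hzl-1 had 11527 reads in the first of these and 0 in the second. These libraries are called by their labels throughout, and no label was tested beyond these values.

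tts-1 was among the most abundant RNAs outside rRNA in 6 of the 7 intestinal-promoter libraries, and it did not differ between the genotypes beyond the spread of their libraries. In HZL-1 aak(0) its level was 2093, 1536 and 1335 FPKM. In HZL-1 daf-2 it was 181, 2119.9 and 6399 FPKM. The library labelled GFP aak(0) had 2079 FPKM. The 3 aak(0) values lay close together, with the highest 1.57 times the lowest, while the highest daf-2 value was 35.3 times the lowest. All 3 aak(0) values and the GFP value fell inside the range of the daf-2 libraries.

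Ordered by mean level, HZL-1 daf-2 came first with 2900.1 ± 3182 FPKM (SD, n = 3), then the library labelled GFP with 2079 FPKM, then HZL-1 aak(0) with 1655 ± 392.4 FPKM (SD, n = 3). The library labelled GFP lay inside the range of each HZL-1 group, which was 1335 to 2093 FPKM in HZL-1 aak(0). It lay above the HZL-1 aak(0) mean by slightly more than that group's SD. The order of the HZL-1 means rested on daf-2 replicate 3, the only library of the 7 above 2119.9 FPKM. On the log2(FPKM + 1) scale the order of the HZL-1 groups turned, with a mean of 10.67 in HZL-1 aak(0) and 10.40 in HZL-1 daf-2.

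**Figure D1:**
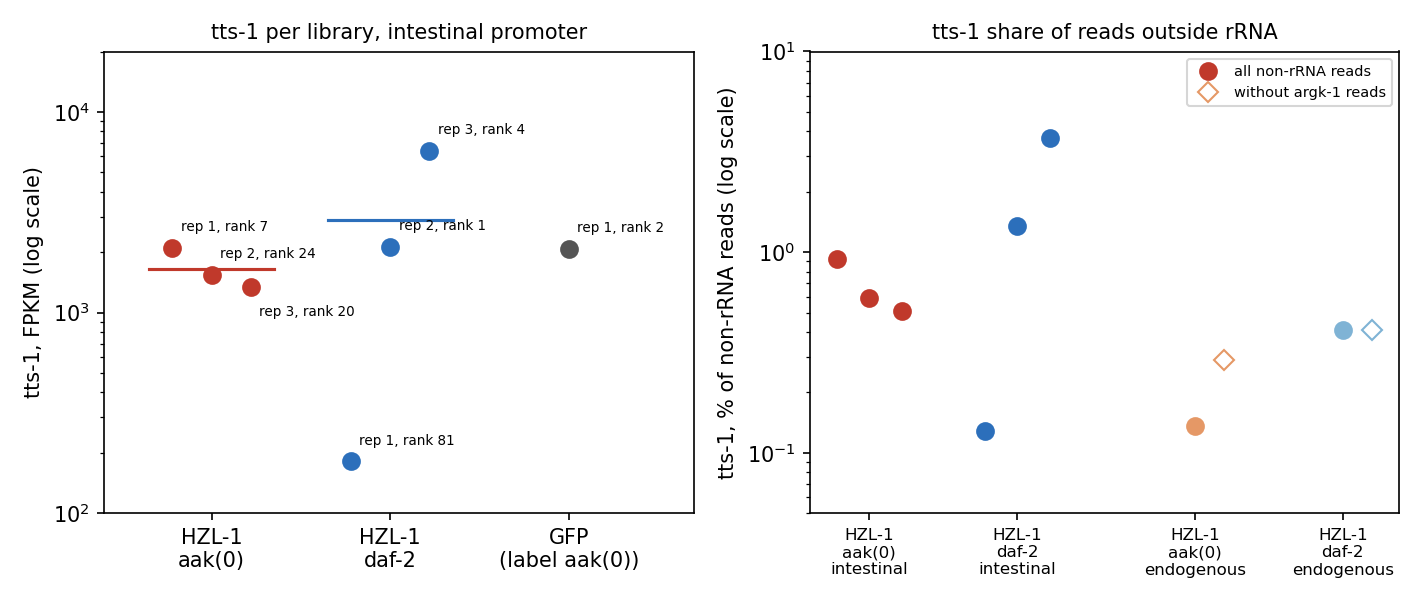
Left, the level of tts-1 in FPKM (log axis) in each intestinal-promoter library, with horizontal lines at the means of the 3 replicates of HZL-1 aak(0) and HZL-1 daf-2 and with the rank of tts-1 among non-rRNA genes beside each point. Right, the share of tts-1 in non-rRNA reads in percent (log axis) for the 8 libraries with reads, and open diamonds show the share without argk-1 reads in the endogenous pair: the daf-2 libraries span from 0.128% to 3.69% and enclose the aak(0) libraries.

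Among genes other than rRNA, ranked per length by FPKM, tts-1 stood 7th, 24th and 20th in HZL-1 aak(0) replicates 1 to 3, 81st, 1st and 4th in HZL-1 daf-2 replicates 1 to 3, and 2nd in the library labelled GFP. The numbers of non-rRNA genes above 0 behind these ranks were 3430, 13948 and 18646 in HZL-1 aak(0), 5125, 11491 and 6056 in HZL-1 daf-2, and 16297 in GFP. Leaving out the genes of the mitochondrial genome as well moved these ranks by at most 1 place. The leading RNA of HZL-1 daf-2 replicate 2 was tts-1, with rpr-1, the RNA component of RNase P, next below it at 2003 FPKM.

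The genes above tts-1 were mostly other noncoding RNAs. They were 2 small nucleolar RNAs (snoRNAs), 3 ncRNAs and 1 protein-coding gene in HZL-1 aak(0) replicate 1, 15, 7 and 1 in replicate 2, and 11, 6 and 2 in replicate 3. They were 3 ncRNAs in HZL-1 daf-2 replicate 3, and in the library labelled GFP the snoRNA F30H5.4 alone, at 3173 FPKM. HZL-1 daf-2 replicate 1 differed: 80 genes lay above tts-1, among them 45 snoRNAs, 15 ncRNAs and 5 genes classed only as protein-coding. There the snoRNA C07A9.14 led with 116567 FPKM, 644 times the level of tts-1, from 5047 reads against 2329 reads of tts-1. FPKM gives such very short genes high values from few reads.

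The genes ranked just above and below tts-1 ranged from 0.536 to 1.55 times its level over the 7 libraries. In HZL-1 aak(0) replicate 1 these were the snoRNAs F01D5.12 at 3249 FPKM and F30H5.4 at 2069 FPKM. In replicate 2 they were the ncRNA lfor-1 at 1604 FPKM and the snoRNA K12D12.6 at 1513 FPKM, and in replicate 3 the snoRNAs C53B7.8 at 1449 FPKM and F11A10.9 at 1275 FPKM. In HZL-1 daf-2 replicate 1 tts-1 stood between a histone gene, his-64, at 182 FPKM and ctc-1, a mitochondrial cytochrome c oxidase subunit, at 172 FPKM. It stood in HZL-1 daf-2 replicate 3 below srpr-2.2 at 9830 FPKM and above rpr-1 at 3430 FPKM. In the library labelled GFP the next below was ctc-3, another mitochondrial cytochrome c oxidase subunit, at 2075 FPKM. Where such gaps are small, as in HZL-1 aak(0) replicates 2 and 3 and HZL-1 daf-2 replicate 1, single places in the ranking carry little.

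**Figure D2:**
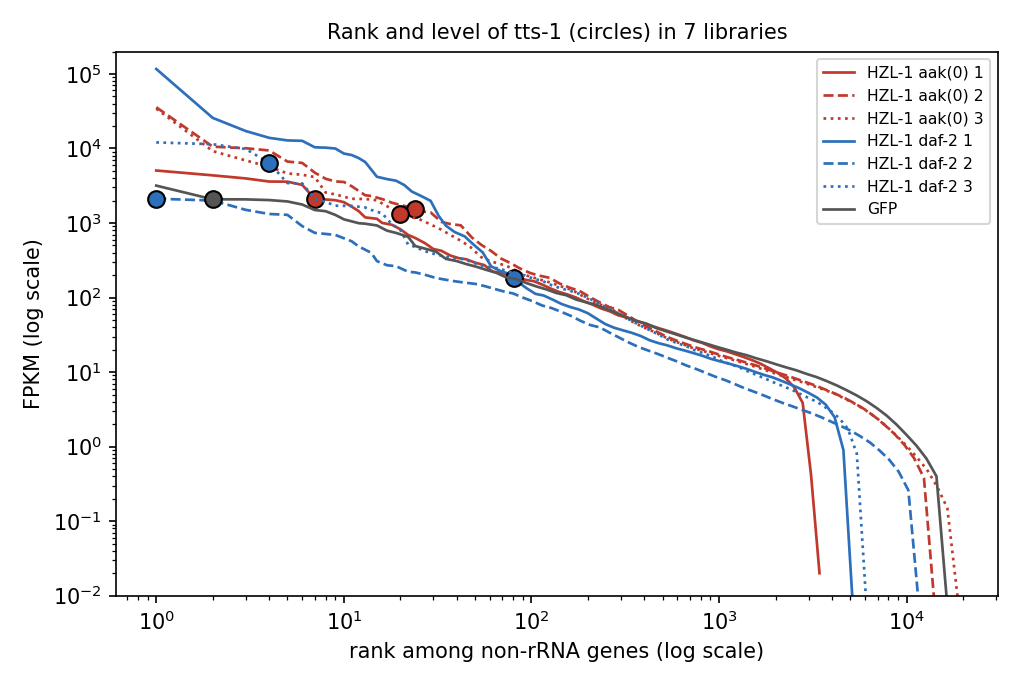
FPKM of non-rRNA genes (log axis) against their rank in each of the 7 intestinal-promoter libraries (log axis), 1 line per library, with tts-1 as a circle. The circle lies among the leading genes in 6 libraries and at rank 81 in HZL-1 daf-2 replicate 1, whose line starts highest.

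The share of tts-1 in reads outside rRNA does not use gene length or the FPKM scale. tts-1 took 12823, 19402 and 17940 reads in HZL-1 aak(0), against 2329, 24027 and 102687 reads in HZL-1 daf-2. In HZL-1 aak(0) these were 0.920% (exact 95% binomial interval 0.904% to 0.936%), 0.589% (0.581% to 0.597%) and 0.507% (0.500% to 0.514%) of non-rRNA reads. In HZL-1 daf-2 they were 0.128% (0.123% to 0.134%), 1.36% (1.34% to 1.37%) and 3.69% (3.67% to 3.71%). The intervals are far narrower than the gaps between replicates; they hold counting error alone, because PCR copies of a molecule were not marked. By read number tts-1 stood 4th, 9th and 9th among non-rRNA genes in HZL-1 aak(0), and 63rd, 2nd and 1st in HZL-1 daf-2. Of the reads outside rRNA, 1 in 27.1 came from tts-1 in HZL-1 daf-2 replicate 3 and 1 in 779 in replicate 1.

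Mean shares were 0.672% ± 0.219 in HZL-1 aak(0) and 1.72% ± 1.81 in HZL-1 daf-2 (SD, n = 3 each). A 2-sided exact permutation test of the difference in mean log2 share (-0.41, aak(0) minus daf-2) gave p = 0.8, where 0.1 is the smallest p that 3 against 3 allows. The same test on log2(FPKM + 1) gave a difference of 0.27 and an exact p of 1. With all gene reads as the denominator, rRNA included, the log2 difference was 0.035 (exact permutation p = 1). The sign of the difference thus changed with the denominator. Because its smallest p is 0.1, this test could not have passed a threshold of 0.05 with any values, so not passing decides nothing. The p of 0.8 or higher shows only that the split by genotype did not stand out among the possible splits.

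In the limma fit over the 9649 genes that averaged 1 FPKM or more, tts-1 in HZL-1 aak(0) over HZL-1 daf-2 had a log2 difference of 0.27 ± 1.28 (SE, limma adjusted p = 0.968). The 95% interval of the difference ran from -2.83 to 3.36, which as a fold change is from 0.141 to 10.3. A change within those bounds is therefore not excluded. This comparison called 1 gene, 0.0104% of those tested, and tts-1 was not it. The median gene had a log2 difference of 0.59 in the same fit, and 38.1% of genes lay below tts-1. On whole reads recovered from the deposited normalized values, edgeR's quasi-likelihood test gave tts-1 a log2 difference of -1.40 (adjusted p = 1.00) and called 0.0214% of genes. DESeq2 on the same reads gave -1.48 ± 2.02 (SE, adjusted p = 0.991) and called 0.0218%. The direction therefore turned with the count tests, and without HZL-1 daf-2 replicate 1 the limma difference was -1.18. Without the 3 libraries with fewest genes (HZL-1 aak(0) replicate 1 and HZL-1 daf-2 replicates 1 and 3) it was -0.57. That left 1 HZL-1 daf-2 library and so no spread within its group. In the others of the 20 alternatives the adjusted p (limma, edgeR or DESeq2) was 0.767 or higher.

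The authors' deposited table holds its own comparison of tts-1, as daf-2 over aak(0), the opposite direction to the differences above. The authors' deposited table gives a log2 fold change of -2.79 with a standard error of 3.27, a p-value of 0.394 and an adjusted p-value of 0.970. Its column called unshrunken, in the authors' deposited table, gives 0.43 for the same gene, with the other sign. The 6 library values in the authors' deposited table, gene reads divided by 1 factor per library, are 17173, 12920.1 and 11176 in aak(0) and 2491, 28698 and 84186 in daf-2. The log2 ratio of these values, daf-2 over aak(0), is -2.79 between the replicates numbered 1, 1.15 between those numbered 2 and 2.91 between those numbered 3. The mean over libraries of the log2 values, daf-2 minus aak(0), is 0.43. The fold change of the fitted column thus equals the ratio of the replicates numbered 1, and the unshrunken one equals the difference of the group means. The sources used here do not give the fitted model.

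**Figure D3:**
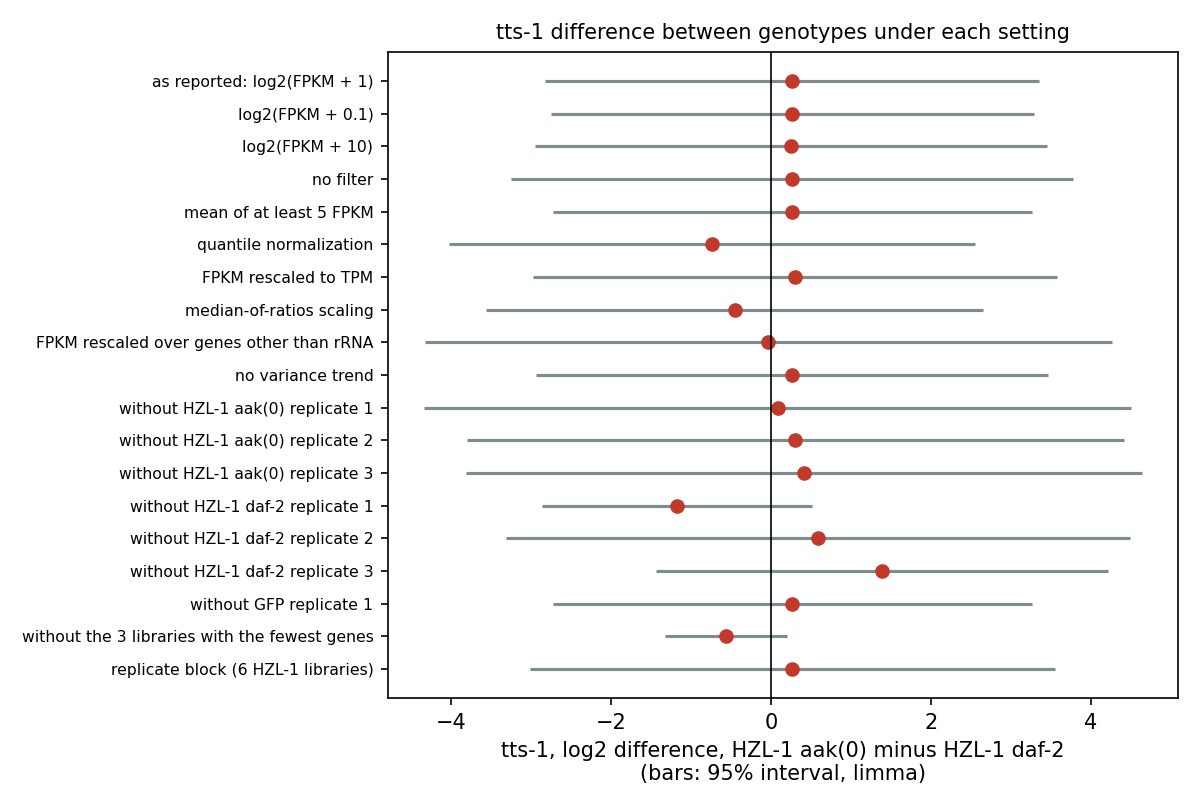
The log2 difference of tts-1, HZL-1 aak(0) minus HZL-1 daf-2, under each setting of the limma fit, with bars for the 95% interval. Every bar includes 0, and the points run from -1.18 without HZL-1 daf-2 replicate 1 to 1.39 without HZL-1 daf-2 replicate 3.

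Against the library labelled GFP aak(0), tts-1 recovered with HZL-1 did not differ beyond the spread of the libraries. The limma log2 difference of HZL-1 aak(0) over GFP was -0.36 ± 1.81 (SE, adjusted p = 0.986), and that of HZL-1 daf-2 over GFP was -0.62 ± 1.81 (SE, adjusted p = 0.895). The 95% intervals ran from -4.73 to 4.02 and from -4.996 to 3.75. Each of these comparisons called 103 genes, 1.07% of those tested, nearly all of them lower with HZL-1 than in GFP. In HZL-1 aak(0) over GFP 2 were higher and 101 lower, and in HZL-1 daf-2 over GFP 0 were higher and 103 lower. With 1 GFP library, its spread is assumed to be that of the HZL-1 groups, and both comparisons share it. The median gene lay at -0.79 in HZL-1 aak(0) over GFP and at -1.28 in HZL-1 daf-2 over GFP, and tts-1 was 0.44 and 0.66 above the median gene of each. This position turned with the setting: it was -0.14 and -0.24 with log2(FPKM + 10), and -2.46 and -1.80 after quantile normalization. Within HZL-1 aak(0), replicate 1 lay above the GFP level and replicates 2 and 3 below it. Within HZL-1 daf-2, replicates 2 and 3 lay above it and replicate 1 below, and without replicate 1 the log2 difference over GFP was 0.82.

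In the endogenous-promoter pair tts-1 again ranked high in both libraries. It had 22862 reads in the library labelled aak(0) and 70327 reads in the library labelled daf-2, where it stood 9th and 8th by read number among non-rRNA genes. Per length, with lengths implied by the reads and FPKM of the intestinal-promoter set, it stood 18th in the library labelled aak(0) and 8th in the library labelled daf-2. Such lengths were to be had for genes with 91.5% and 98.2% of the non-rRNA reads, but for only 57.7% and 86.0% of the non-rRNA genes with reads. Genes without a length were left out of these ranks. Above it by read number were 7 protein-coding genes and 1 ncRNA in the library labelled aak(0), and 6 and 1 in the library labelled daf-2.

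The share of tts-1 in non-rRNA reads was 0.136% (exact 95% binomial interval 0.134% to 0.138%) in the library labelled aak(0) and 0.408% (0.405% to 0.411%) in the library labelled daf-2. The ratio, aak(0) over daf-2, was 0.333 (0.328 to 0.338, counting error only). With 1 library each the difference has no replicate check and is not tested. Both shares lay within the range of the 3 intestinal-promoter daf-2 libraries, whose table was normalized separately and whose highest share was 28.7 times the lowest. The share in the endogenous library labelled aak(0) lay below all 3 intestinal-promoter aak(0) libraries, which ran from 0.507% to 0.920%. argk-1, which encodes an arginine kinase, took 8965110 reads in the library labelled aak(0), 53.3% of its non-rRNA reads, against 2 reads in the library labelled daf-2. Without argk-1 the shares were 0.291% and 0.408% and the ratio was 0.712. The first of these was still below the 0.524% to 0.975% of the intestinal-promoter aak(0) libraries without argk-1. Of 8959 genes with at least 10 reads in both libraries, the median log2 ratio of shares was -1.04 and that of tts-1 was -1.59, with 35.9% of genes below it. Leaving argk-1 out shifts every gene by 1.10, which puts the median at 0.055 and tts-1 at -0.49.

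In the intestinal-promoter set argk-1 had 77709, 39088 and 114884 reads in HZL-1 aak(0), against 5, 0 and 38 reads in HZL-1 daf-2. It took at most 5.58% of non-rRNA reads there, and leaving it out moved the log2 difference in the share of tts-1 to -0.36 (exact permutation p = 0.9).

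The spread of tts-1 within HZL-1 daf-2 was wide even for an abundant RNA. Over 122 non-rRNA genes that averaged 100 FPKM or more and had a value above 0 in all 7 libraries, the SD of log2(FPKM + 1) had a median of 0.39 in HZL-1 aak(0) and 1.14 in HZL-1 daf-2. For tts-1 it was 0.33 in HZL-1 aak(0), where 75 of the genes had a larger SD, and 2.63 in HZL-1 daf-2, where 4 did. The makeup of the libraries varied as well. snoRNAs took 19.1%, 52.2% and 46.6% of non-rRNA FPKM in HZL-1 aak(0), 72.3%, 8.75% and 15.8% in HZL-1 daf-2, and 12.5% in GFP. The lowest library for tts-1 was thus the highest for snoRNAs. The relation did not hold throughout. HZL-1 daf-2 replicate 3 was above replicate 2, and HZL-1 aak(0) replicate 2 above replicate 3, in both tts-1 and snoRNAs. With snoRNAs left out of the total as well, tts-1 took 2.01%, 1.27% and 1.15% of the remaining FPKM in HZL-1 aak(0), 0.168%, 3.59% and 5.03% in HZL-1 daf-2, and 1.59% in GFP. The daf-2 libraries then still enclosed all others.

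Markers of other cell types also varied among the daf-2 libraries. The 4 germline markers, all above 0 in every library, summed to between 47.3 and 139.6 FPKM in HZL-1 aak(0) and between 5.21 and 72.0 FPKM in HZL-1 daf-2, with the lowest sum in the library where tts-1 was highest. The 7 intestine markers summed to between 22.9 and 32.9 FPKM in HZL-1 aak(0) and between 24.9 and 47.1 FPKM in HZL-1 daf-2. The highest sum, again in that library, came mostly from ifb-2, an intermediate filament gene, at 35.9 FPKM, with 4 of the 7 markers above 0 and act-5, ges-1 and elt-2 at 0. Over HZL-1 daf-2 replicates 1 to 3 the 3 body wall muscle markers summed to 29.8, 66.3 and 99.7 FPKM. The 4 neuron markers summed to 68.0, 82.85 and 99.4 FPKM there. In HZL-1 aak(0) these sums ran from 38.5 to 178.55 and from 68.4 to 110.2 FPKM. Among the daf-2 libraries both rose in the order of tts-1, as did the intestine sum, while the germline sum fell. The sums for pharynx, hypodermis and sperm followed neither order. The part of these markers in the level of tts-1 was not tested.

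Among the 14 ncRNA genes with a symbol that were compared by mean FPKM over the 7 libraries, tts-1 was 4th, at 2249 FPKM. The first 3 places were held by srpr-1.2, srpr-2.1 and srpr-2.2, copies of the RNA of the signal recognition particle, which guides secreted proteins to the endoplasmic reticulum. srpr-1.2 had 3963, 2038 and 1888 FPKM in HZL-1 aak(0), 13886, 1287 and 11413 FPKM in HZL-1 daf-2, and 1769 FPKM in GFP. In HZL-1 daf-2 replicate 1, where tts-1 was lowest, srpr-1.2 was thus at its highest. Near-identical copies share reads, so the split among the srpr genes is uncertain. lfor-2 was listed at up to 1660 FPKM while it had 0 reads in each of the 8 libraries with reads, so its level is uncertain too.

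rpr-1 had 1169, 2094 and 2008 FPKM in HZL-1 aak(0), 663, 2003 and 3430 FPKM in HZL-1 daf-2, and 968 FPKM in GFP. Its order among the daf-2 libraries was that of tts-1, over a narrower range. The ratio of tts-1 to rpr-1 was 1.79, 0.73 and 0.66 in HZL-1 aak(0), 0.27, 1.06 and 1.87 in HZL-1 daf-2, and 2.15 in GFP. mrpr-1, the RNA of RNase MRP, had 189, 643 and 536 FPKM in HZL-1 aak(0), 317, 140.1 and 208 FPKM in HZL-1 daf-2, and 303 FPKM in GFP. It followed another order, lowest in HZL-1 daf-2 replicate 2. Over the 7 libraries Pearson's r with tts-1 on the log2(FPKM + 1) scale was 0.77 for rpr-1 and -0.31 for mrpr-1, but without the 2 libraries farthest from the median of tts-1 it was -0.62 and -0.87, so the relation to rpr-1 rests on those libraries.

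**Figure D4:**
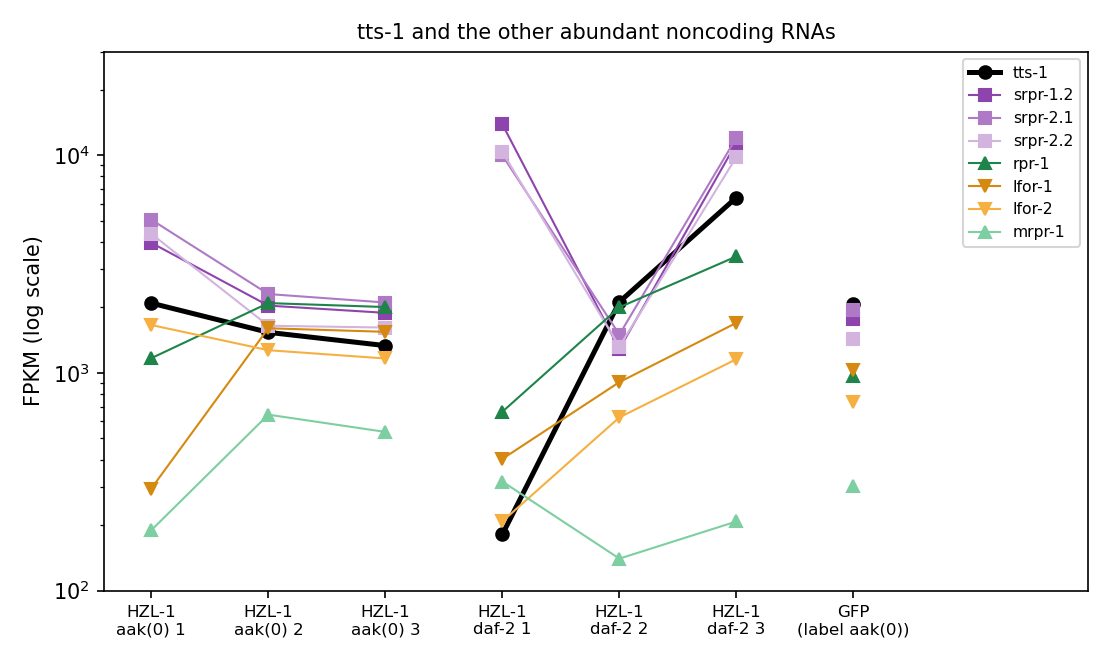
FPKM (log axis) of tts-1 and 7 other abundant ncRNAs in the 7 intestinal-promoter libraries, 1 symbol per gene and library; lines join the values of a gene within a group so that it can be followed and imply no order of replicates. In HZL-1 daf-2 replicate 1 tts-1 is lowest of the 8 while the srpr genes are near their highest.

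Other long noncoding RNAs were far less abundant than tts-1. A list of 232 noncoding RNAs, made of the linc and anr genes with rpr-1, mrpr-1 and a few more, had between 12 and 117 members above 0 FPKM per library. The summed level of the whole list was 1814, 2866 and 2661 FPKM in HZL-1 aak(0), 1045, 2210 and 3793 FPKM in HZL-1 daf-2, and 1521 FPKM in GFP. rpr-1 and mrpr-1 were the only members above tts-1 in any library. The leading long intergenic RNAs were linc-50, at 173 FPKM in HZL-1 aak(0) replicate 1 and listed at 0 in the other 6 libraries, and linc-35, at 168 FPKM in that same library. linc-35 was listed at 0 or at no more than 3.64 FPKM elsewhere. Of the 232, 35 passed the filter on low values. None of them was called between HZL-1 aak(0) and HZL-1 daf-2, with 1 at an unadjusted limma p under 0.05 (4.35% of all genes) and a median log2 difference of 0.35 against 0.59 for all genes. In each comparison with GFP the fit called 1 of the 35, anr-15, which had 8.78 FPKM in the library labelled GFP, 0.5 FPKM in HZL-1 aak(0) replicate 3, and was listed at 0 elsewhere. It passed the filter on low values only through that single GFP library, so the call is not read as a difference. No gene was called in either comparison without a variance trend or with a mean of at least 5 FPKM. The median of the 35 was -0.48 for HZL-1 aak(0) over GFP and -0.56 for HZL-1 daf-2 over GFP.

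The genes with the pattern most like that of tts-1 were sought among 944 genes above 0 in all 7 libraries with a mean of at least 10 FPKM, by Pearson's r of log2(FPKM + 1) over the 7 libraries. Over all 944 the median r was 0.20, with quartiles at -0.22 and 0.65. The 5 named genes with the highest r were rps-16 (r = 0.98), casy-1 (0.97), rps-0 (0.96), apl-1 (0.96) and osm-11 (0.96). rps-16 and rps-0 encode proteins of the small ribosomal subunit, casy-1 a calsyntenin, apl-1 the relative of the amyloid precursor protein and osm-11 a secreted ligand of Notch receptors. The values share their libraries, with their unequal depth and makeup.

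osm-11 had 98.5, 70.5 and 57.7 FPKM in HZL-1 aak(0), 6.05, 92.9 and 126.5 FPKM in HZL-1 daf-2, and 98.5 FPKM in GFP. rps-16 had 173, 143 and 139 FPKM in HZL-1 aak(0), 57.8, 169 and 274 FPKM in HZL-1 daf-2, and 131 FPKM in GFP. Each gene was lowest in HZL-1 daf-2 replicate 1 and highest in HZL-1 daf-2 replicate 3, as tts-1 was. Spearman's rho was 0.86 for rps-16, casy-1 and osm-11, 0.68 for apl-1 and 0.54 for rps-0. Without HZL-1 daf-2 replicates 1 and 3, the libraries farthest from the median of tts-1, r was 0.99 for osm-11, 0.81 for casy-1, 0.49 for rps-16, 0.36 for apl-1 and -0.15 for rps-0. The likeness of rps-0, rps-16 and apl-1 therefore rests largely on those libraries.

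The genes least like tts-1 were rbm-22 (r = -0.90), trpp-11 (-0.89) and aagr-3 (-0.83). rbm-22, which encodes an RNA-binding protein, had 14.6, 12.1 and 13.3 FPKM in HZL-1 aak(0), 44.9, 4.17 and 2.83 FPKM in HZL-1 daf-2, and 12.29 FPKM in GFP. It was highest in HZL-1 daf-2 replicate 1, the library where tts-1 was lowest.

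**Figure D5:**
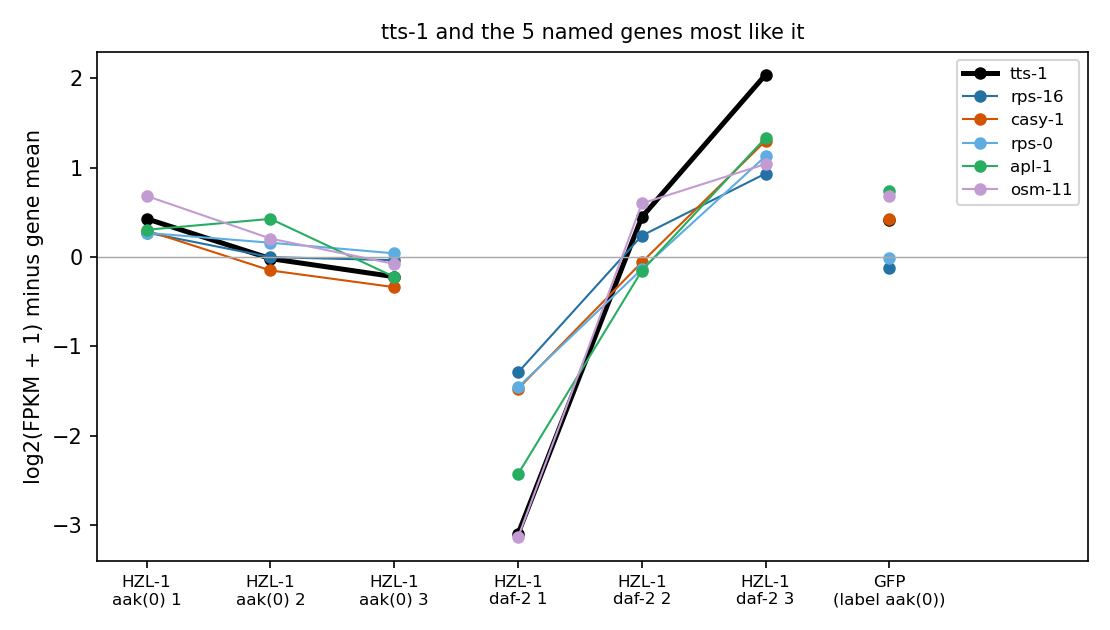
log2(FPKM + 1) minus the gene's mean over the 7 intestinal-promoter libraries, for tts-1 and the 5 named genes with the highest Pearson's r with it; lines join the values of a gene within a group and imply no order of replicates. All 6 genes are lowest in HZL-1 daf-2 replicate 1 and highest in HZL-1 daf-2 replicate 3, and tts-1 moves over the widest range of them apart from osm-11 at the low end.

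Because tts-1 is known as a ribosome-associated RNA, its level was set beside those of the 81 genes for cytosolic ribosomal proteins. Their median level was 109.1, 123 and 118 FPKM in HZL-1 aak(0), 27.1, 87.3 and 148 FPKM in HZL-1 daf-2, and 108 FPKM in GFP. tts-1 stood at 19.2, 12.5 and 11.3 times that median in HZL-1 aak(0), at 6.69, 24.3 and 43.4 times it in HZL-1 daf-2, and at 19.2 times it in GFP. The groups overlapped, and the log2 of this ratio averaged 3.80 in HZL-1 aak(0) and 4.26 in HZL-1 daf-2 (2-sided exact permutation p = 0.6). In HZL-1 daf-2 the ribosomal protein genes thus moved with tts-1 over a smaller range.

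Of the 60 ribosomal protein genes among the 944, r with tts-1 ran from 0.19 to 0.98. Their median r was 0.82, beside 0.20 over all 944 genes, and 16 were among the 50 genes most like it. Without HZL-1 daf-2 replicates 1 and 3, r fell to 0.49 for rps-16 and -0.15 for rps-0. It was not computed without them for the 60 as a set. The most abundant, rps-8, had 541, 442 and 398 FPKM in HZL-1 aak(0), 166, 263 and 808 FPKM in HZL-1 daf-2, and 330.3 FPKM in GFP. The next, rpl-6, rpl-3 and rps-4, were likewise lowest in HZL-1 daf-2 replicate 1, at 61.8, 110.1 and 134 FPKM, against lowest values of 253.5, 254.3 and 217.4 FPKM in HZL-1 aak(0). No ribosomal protein gene passed the test in any of the comparisons: 80 of the 81 entered the limma fit and 0 were called in each, with 3, 0 and 0 at an unadjusted p under 0.05, a level that 4.35%, 1.94% and 7.54% of all tested genes reached. Their median log2 difference was 0.63 in HZL-1 aak(0) over HZL-1 daf-2, 0.19 in HZL-1 aak(0) over GFP and -0.55 in HZL-1 daf-2 over GFP, beside 0.59, -0.79 and -1.28 for all genes.

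The insulin pathway up to DAF-16, on which tts-1 depends, was present but at far lower levels. daf-16, which encodes the transcription factor itself, had 189.6, 75.7 and 77.6 FPKM in HZL-1 aak(0), 36.9, 62.2 and 126.1 FPKM in HZL-1 daf-2, and 140.7 FPKM in GFP. It was lowest in HZL-1 daf-2 replicate 1, as tts-1 was, but highest in HZL-1 aak(0) replicate 1. Its Pearson's r with tts-1 was 0.74 over 7 libraries (Spearman's rho 0.43), and 0.46 without HZL-1 daf-2 replicates 1 and 3. The receptor gene daf-2 had 19.5, 11.2 and 13.9 FPKM in HZL-1 aak(0), 11.1, 10.8 and 7.27 FPKM in HZL-1 daf-2, and 22.6 FPKM in GFP. The kinase gene akt-1, which acts between them, ran from 18.2 to 27.3 FPKM in HZL-1 aak(0) and from 12.5 to 15.7 FPKM in HZL-1 daf-2, and was 33.2 FPKM in GFP. Of 10 pathway genes 9 were tested and 0 were called in each comparison, with 1, 0 and 1 at an unadjusted limma p under 0.05, beside the same 4.35%, 1.94% and 7.54% of all genes. Their median log2 difference was 0.60 in HZL-1 aak(0) over HZL-1 daf-2.

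Genes known as DAF-16 targets varied across the libraries in different ways. sip-1, a small heat shock protein gene, had 43.5, 142 and 126 FPKM in HZL-1 aak(0), 71.4, 21.3 and 19.1 FPKM in HZL-1 daf-2, and 180.2 FPKM in GFP. It was thus highest among the daf-2 libraries in replicate 1, where tts-1 was lowest. mtl-1, a metallothionein gene, had 64.1, 32.2 and 34.7 FPKM in HZL-1 aak(0), was listed at 0 in HZL-1 daf-2 replicate 1 and at 24.6 and 38.9 FPKM in replicates 2 and 3, and had 24.0 FPKM in GFP. hil-1, a linker histone gene, was likewise listed at 0 in HZL-1 daf-2 replicate 1 and had 28.4 and 62.4 FPKM in replicates 2 and 3, against 67.6, 20.3 and 23.3 FPKM in HZL-1 aak(0). hsp-12.6, another small heat shock protein gene, was listed at 0 in HZL-1 aak(0) replicate 1 and at 82.4 and 68.6 FPKM in replicates 2 and 3, against 1.38, 35.6 and 32.3 FPKM in HZL-1 daf-2. In reads its daf-2 libraries were close, with 226, 344 and 310 reads, so the low FPKM of replicate 1 was not seen in the reads. Of the 18 targets 13 were tested and 0 were called in each comparison, with 0, 1 and 1 at an unadjusted limma p under 0.05, again beside 4.35%, 1.94% and 7.54% of all genes. Their median log2 difference was 1.24 in HZL-1 aak(0) over HZL-1 daf-2, beside 0.59 for all genes.

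No annotated gene overlapped tts-1, and its 6 neighbours within 5000 bases had few reads. On the side of lower coordinates F09E10.1, a protein-coding gene, ended 852 bases before tts-1 and F09E10.7 ended 2278 bases before it. On the other side the ncRNA genes F09E10.14, F09E10.10, F09E10.15 and F09E10.16 began 42, 348, 1460 and 4208 bases after it. The most reads of any neighbour in any library were the 1720 of F09E10.15 in the endogenous library labelled daf-2, against 70327 of tts-1 there, and the highest level was 71.8 FPKM, of F09E10.16 in HZL-1 aak(0) replicate 2. The sources used here do not say whether counting used strand, so a transcript antisense to tts-1 could not be told apart from it.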

How the data were processed

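RNA recovered with anti-GFP beads from whole dauers was measured by sequencing in 9 libraries, grouped by the labels' genotypes. Polyadenylated RNA was selected and sequenced from both ends, per the labels' protocols. The submitters' processing notes name the build WBcel235 and the tools Trimmomatic 0.35, STAR 2.7.1a, RSEM and DESeq2 1.30.1. The authors deposited FPKM values for the 7 intestinal-promoter libraries. For their 6 HZL-1 libraries the authors also deposited a normalized signal per gene, gene reads divided by 1 factor per library, with log2 fold changes. That deposited table lists p-values and adjusted p-values as well. For the endogenous pair the deposited values are raw read counts. GFP came without reads, so its depth is unknown. Rows that name no gene held 62.1% of the reads in the endogenous library labelled aak(0) and 29.6% in the one labelled daf-2, and were left out.

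Every normalized value was a whole multiple of its library's smallest (100% within 0.01), which gave back whole reads; on these edgeR called 2 genes of 9328. The floor of 3 reads is 0.172 to 0.419 CPM (per-library scaling by gene reads) for HZL-1 with the intestinal promoter. Sequence names of 1054 genes were replaced by symbols from the NCBI RefSeq table (WBcel235).

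log2(FPKM + 1) of the 7 libraries was tested with limma 3.58.1 in R 4.3.3, using its mean-variance trend, with Benjamini-Hochberg adjustment over 9649 genes and a threshold of 0.05. Fold changes on that scale understate the change of low genes. Exact permutation tests used scipy 1.17.1, and edgeR 4.0.16 and DESeq2 1.42.0 were alternatives. The tables were normalized separately, so no test crosses them. limma and edgeR were tested on simulated data.

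tts-1, the gene lists and the rule for named genes were chosen with earlier results of these data known. Named were tts-1, its neighbours in rank and on the genome, the 5 genes most and 3 least like it, and the 4 most abundant members of each list, of which 1 is not reported here; anr-15, argk-1, the srpr genes and lfor-2 were named after their values were seen. The labels do not say whether replicates were separate cultures; p-values therefore reflect the spread of these samples alone, and that spread may be technical. No sequence of tts-1 was used here.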

Additional observations from a re-analysis of the deposited data

How the results depend on the processing

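tts-1 was not called in any comparison under any alternative, and its direction was not stable. For HZL-1 aak(0) over HZL-1 daf-2 the log2 difference was 0.27 as reported, but -0.74 after quantile normalization, -0.45 after median-of-ratios scaling, -0.032 with FPKM rescaled over genes other than rRNA, -1.40 with edgeR and -1.48 with DESeq2; the permutation test gave the same -0.74, -0.45 and -0.032. HZL-1 aak(0) replicate 1 and HZL-1 daf-2 replicates 1 and 3 were the 3 libraries with fewest genes. Leaving them out together, a choice made after seeing the data, gave -0.57, with 1 HZL-1 daf-2 library left. Leaving out 1 library at a time gave from -1.18 (without HZL-1 daf-2 replicate 1) to 1.39 (without HZL-1 daf-2 replicate 3). Of the 20 alternatives 7 turned the sign. The filters, no variance trend, leaving out GFP and the replicate block cannot change the difference, so they do not test its sign. With replicates left in both groups, adjusted p was 0.767 or higher (limma, edgeR or DESeq2). The log2 difference in the share of non-rRNA reads, -0.41 as reported, was 0.035 with all gene reads and ran from -1.78 to 0.64 without 1 library. For HZL-1 daf-2 over GFP, -0.62 as reported, it was 0.43 with median-of-ratios scaling, 0.028 without those 3 libraries and from -1.74 to 0.82 without 1 library. For HZL-1 aak(0) over GFP none of 16 alternatives turned the sign (-2.45 to -0.02). Some of them could not, as the filters, no variance trend and leaving out a HZL-1 daf-2 library do not touch that difference. The ratio of the endogenous pair, 0.333, was 0.786 with all gene reads, 0.671 with median-of-ratios scaling and 0.712 without argk-1. The cause of these changes was not tested.

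Genes called between HZL-1 aak(0) and HZL-1 daf-2 numbered 1 as reported, 0 with log2(FPKM + 10), without a filter, with quantile normalization and without those 3 libraries, 2 with a mean of at least 5 FPKM, with TPM and with edgeR, 5 with DESeq2, and from 0 to 545 without 1 library, the highest without HZL-1 aak(0) replicate 1. Over GFP they numbered 103 for each genotype as reported, 2058 for HZL-1 aak(0) and 2348 for HZL-1 daf-2 without a filter, and 0 for each with a mean of at least 5 FPKM, quantile normalization, no variance trend or without those 3 libraries. Without 1 library they ran from 108 to 158 for HZL-1 aak(0) and from 106 to 433 for HZL-1 daf-2. With the replicate number as a block, tts-1 was at 0.27 (limma adjusted p = 0.972) and 0 genes were called. Deviations of each gene from its group mean, not the levels themselves, were correlated across genotypes. Same-numbered libraries gave -0.11, -0.05 and -0.10, and other pairs -0.10 to 0.12. Within a group of 3 such deviations depend on each other, and so do these values. The numbers thus gave no sign of pairing, but 3 libraries per group cannot exclude it. Of 17 alternative ranks of tts-1, 6 were unchanged, 11 (those 6 included) lay within 1 place and 6 moved by over 1.5 times, at most 4 times. Of 24 alternative shares 8 moved by over 1.5 times, at most 9.83 times, 7 of them with all gene reads as the denominator and 1 without argk-1.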
